A study of Homo sapiens with 2 samples.

Results

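Metallothioneins and 2 genes of the cellular zinc response were followed in HEK293T cells in which FKBP5 had been stably knocked down. The set holds 9 genes chosen by symbol: the metallothioneins MT1E, MT1F, MT1G, MT1M, MT1X, MT2A and MT3, the zinc sensor MTF1 and the zinc exporter SLC30A1. All 9 matched an Ensembl ID among the 60683 in the count table. HEK293T is a human embryonic kidney line that carries the SV40 large T antigen, and the knockdown used short hairpin RNAs against FKBP5, an HSP90-binding immunophilin that restrains the glucocorticoid receptor. RNA-seq of total RNA gave 1 group of 2 FKBP5 knockdown samples, named sample 1 and sample 2. Cells with a scrambled control were not analysed here, so the values are levels in knockdown cells and differences between the 2 libraries, and no effect of the knockdown is given. The labels name neither the hairpin sequences nor the number of clones, and they do not say whether the samples were grown separately. SD then measures only the spread between 2 libraries, which could be technical. P-values set the difference between these libraries against counting error alone.

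Metallothioneins are small, cysteine-rich proteins that bind zinc, copper and cadmium and buffer the free metal in the cytosol. Free zinc is sensed by MTF1, a zinc finger transcription factor that binds metal response elements in the promoters of metallothionein genes and of SLC30A1. Glucocorticoids also induce some metallothionein genes, MT2A among them. MT2A and the MT1 genes are expressed in many tissues, whereas MT3 is best known from brain.

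The metallothionein members lie in a cluster on chromosome 16, and upstream sequence of some of them is shown here because MTF1 acts through short elements there. The core of the metal response element was searched as TGCACNC and TGCGCNC, on both strands, in the 250 bases before each RefSeq start (GRCh38.p14). A window was at hand for 4 of the 9 genes (MT1X, MT2A, MTF1 and SLC30A1) and for 3 other metallothionein genes (MT1B, MT1H and MT4). MT2A had 7 matches, a number reached by 0.0313% of 35116 windows, and MT1X had 4, reached by 0.370%. The windows compared were not matched for GC content, which was 73.2% for MT2A and 70% for MT1X. SLC30A1 had 1 match, while 24.8% of all windows had 1 or more, and these letters were not found in the MTF1 window. Among the genes outside the set, MT1H had 8 matches and MT1B and MT4 had 3 each. A match is a description of the letters and does not show binding.

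A match that began 53 or 54 bases before the start recurred in 4 of these genes, which differ widely in their counts below. The stretches of 27 bases are shown 5′ to 3′ on the plus strand, which is the strand of each gene, with the match in capitals. All bases of the MT2A window are also exonic in a longer GENCODE 29 transcript of the gene. The stretches lie at chr16:56608520-56608546 for MT2A, chr16:56682407-56682433 for MT1X, chr16:56651823-56651849 for MT1B and chr16:56669751-56669777 for MT1H.
MT2A: gcggggctttTGCACTCgtcccggctc
MT1X: gcggggcctcTGCGCCCggccctcttc
MT1B: gcggggcctcTGCACCCcaccacctcc
MT1H: gcagggtctcTGCACCCggctccctcc

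A match on the opposite strand lay further upstream, at 88 bases before the start in MT2A (chr16:56608486-56608512) and 78 in MT1X (chr16:56682382-56682408). MT1B, MT1H and MT4, which had no count in either sample, also held such a match, at 79, 78 and 90 bases. The single match of SLC30A1 began 49 bases before its RefSeq start, also on the strand opposite to the gene (chr1:211579194-211579220, shown on the minus strand). That RefSeq start lies upstream of the GENCODE 29 start of SLC30A1, which is at chr1:211578742. In these lines the capitals are the reverse complement of the motif.
MT2A: agcgcggggcGTGTGCAggcagcgccc
MT1X: cagcaggggcGGGTGCAaggacgaggc
SLC30A1: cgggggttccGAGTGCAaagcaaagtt

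The upstream window of MT1X shows how close its 4 matches lie. It is given for the 204 bases before the first GENCODE 29 exon of the gene (chr16:56682220-56682423, plus strand), with the matches in capitals.
MT1X: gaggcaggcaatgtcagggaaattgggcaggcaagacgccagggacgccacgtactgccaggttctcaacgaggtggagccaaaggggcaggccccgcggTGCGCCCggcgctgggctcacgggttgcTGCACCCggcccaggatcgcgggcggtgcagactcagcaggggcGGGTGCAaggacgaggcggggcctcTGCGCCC

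Sample 1 held 9997706 counts and sample 2 held 21284648, so a rare transcript was more likely to be seen in sample 2. Levels are CPM as deposited, which adjust counts for the size of a library but not for transcript length, and intervals are 95% exact Poisson intervals, which cover counting error only. A level of 3 counts, used as the floor, was 0.289 CPM in sample 1 and 0.137 CPM in sample 2. FKBP5 itself had 41 and 77 counts, or 3.95 and 3.52 CPM, which cannot be set against control cells. All 10 genes listed as usual for HEK293T had at least 1 CPM. The same held for 1 of 6 blood cell markers, 3 of 6 fibroblast markers, 2 of 6 epithelial line markers and 0 of 4 liver markers.

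MT2A had most of the metallothionein counts. It had 327 counts in sample 1 and 585 in sample 2, which were 31.5 CPM (28.2 to 35.1) and 26.8 CPM (24.6 to 29.03), a mean of 29.1 ± 3.36 CPM (SD, n = 2). Of the counts of the 7 metallothioneins, MT2A took 89.1% in sample 1, with a 95% Wilson interval of 85.5 to 91.9%. In sample 2 it took 86.0%, with an interval of 83.2 to 88.4%. These intervals overlap. With 14 further metallothionein genes and pseudogenes in the denominator, the shares were 87.9% and 84.5%.

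MT1F had the next most metallothionein counts in both samples. It had 33 counts in sample 1 and 67 in sample 2, or 3.18 CPM (2.19 to 4.47) and 3.07 CPM (2.38 to 3.89). Its share of the counts of the 7 metallothioneins was 8.99% in sample 1 and 9.85% in sample 2. MT1X, a widely expressed member, had 7 and 16 counts, or 0.675 CPM (0.271 to 1.39) and 0.732 CPM (0.418 to 1.19). In both samples the CPM interval of MT1X lay below that of MT1F.

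MT1E, MT1G, MT1M and MT3 had fewer than 10 counts in each sample. MT3 had no count in sample 1, with an interval up to 0.356 CPM, and 9 counts in sample 2, or 0.412 CPM (0.188 to 0.782). The sample 2 interval of MT3 overlaps that of MT1X and reaches below that limit, so the order of these genes and the difference of MT3 between the libraries could not be settled at this depth. MT1E had no count in sample 1 and 2 in sample 2, and MT1M had no count and 1. MT1G was the only one of the 9 genes with no count in either sample. Its intervals reached up to 0.356 CPM in sample 1 and 0.169 CPM in sample 2.

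**Figure D1:**
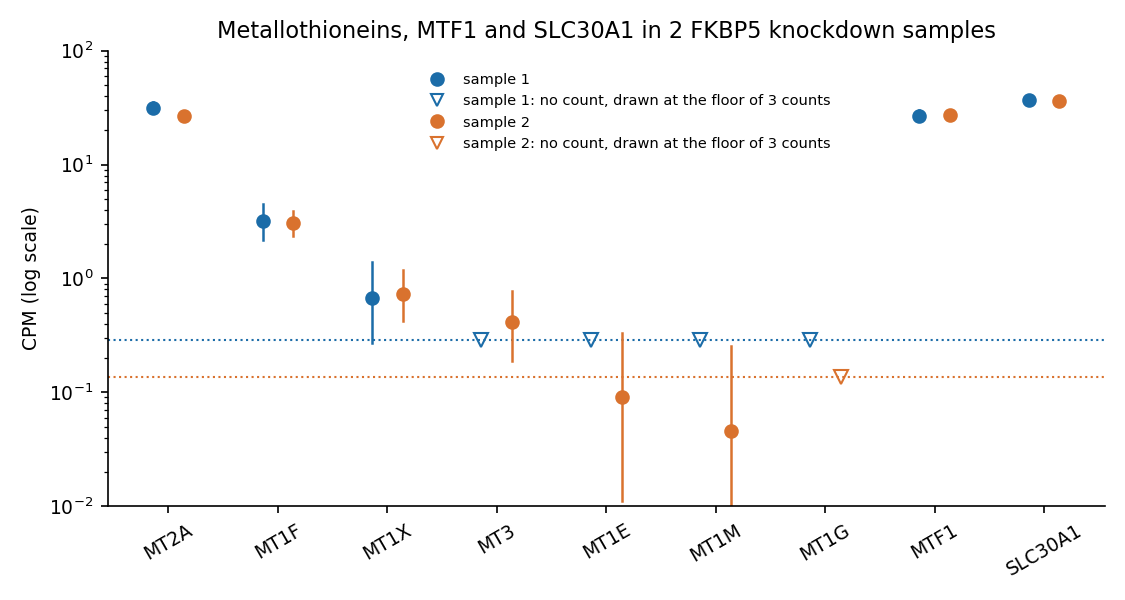
CPM of each gene on a log scale in sample 1 (blue) and sample 2 (orange), with 95% exact Poisson intervals as bars, and open triangles where there was no count, drawn at the floor of 3 counts (dotted lines). MT2A, MTF1 and SLC30A1 lie between 26.8 and 37.0 CPM, MT1E, MT1G and MT1M lie at or below the floor, and MT3 is above it in sample 2 alone.

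MTF1 and SLC30A1 were expressed and nearly alike in both samples. MTF1 had 280 counts in sample 1 and 601 in sample 2, or 27.0 CPM (23.9 to 30.3) and 27.5 CPM (25.3 to 29.8). SLC30A1, which moves zinc out of the cell across the plasma membrane, had 384 and 793 counts, or 37.0 CPM (33.4 to 40.9) and 36.3 CPM (33.8 to 38.9). Long transcripts gather more reads than short ones, so levels of different genes are compared below by CPM per kb of exon, taken over the union of a gene's exons in GENCODE 29.

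Per kb, MT2A led the 9 genes with 24.3 CPM per kb in sample 1 and 20.6 in sample 2. SLC30A1 followed at 6.76 and 6.63 CPM per kb, MTF1 at 3.36 and 3.43, MT1F at 1.68 and 1.62 and MT1X at 0.381 and 0.413. Each of the first 4 was above the next in both samples without overlap, whereas the counting intervals of MT1X and MT3 overlapped. MT3, MT1E, MT1M and MT1G came last and overlapped from each to the next, with all 4 at 0 in sample 1. Among 15436 genes whose mean was 1 CPM or more and whose length was known, 86.4% lay below MT2A per kb, 59.1% below SLC30A1, 41.3% below MTF1 and 25.6% below MT1F.

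**Figure D2:**
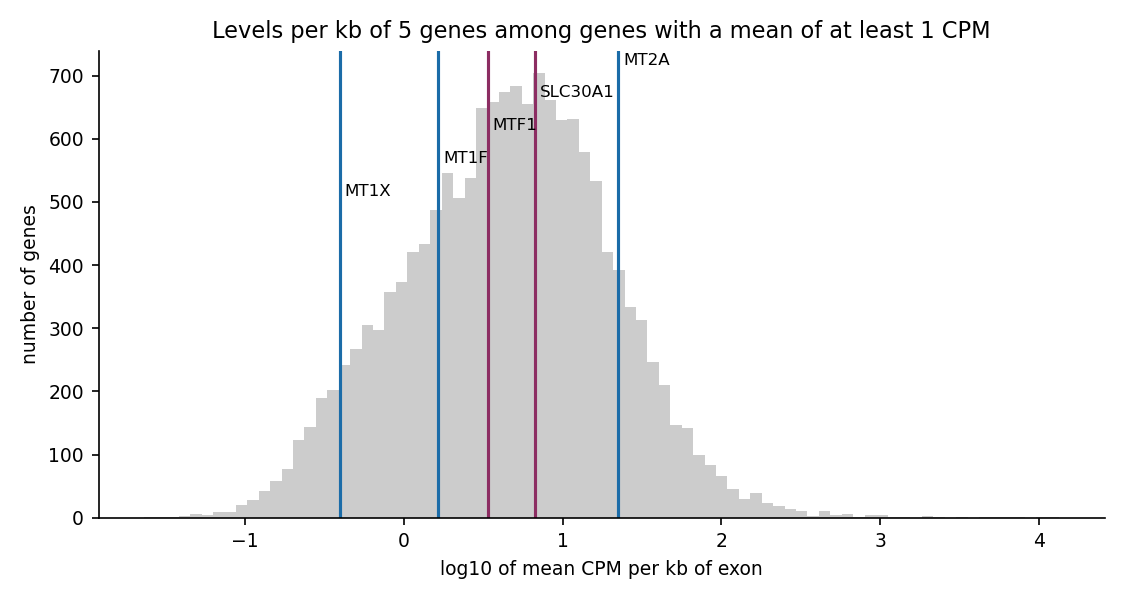
Histogram of the log10 of mean CPM per kb of exon over genes whose mean reached 1 CPM (grey), with lines at MT2A, MT1F and MT1X (blue) and at SLC30A1 and MTF1 (purple). MT1X, at a mean of 0.703 CPM, is itself under that minimum and is drawn for its level per kb, and MT2A lies above 86.4% of the genes.

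In each sample, the excess of MT2A was larger than counting error over every other metallothionein of the set that had a count there. Per kb it was 14.4 times MT1F in sample 1 (95% exact interval 10.1 to 21.3) and 12.7 times in sample 2 (9.85 to 16.6). Against MT1X the ratio was 63.8 (30.6 to 160) in sample 1 and 49.9 (30.5 to 87.9) in sample 2. MT1G had no count in either sample. Set to the floor of 3 counts per library, it lay 62.9-fold below MT2A in sample 1 and 113-fold below in sample 2. MT1E, MT1M and MT3 had 0 counts in sample 1. Set to that floor there, they lay 88.3-fold, 79.0-fold and 154-fold below MT2A. Ratios to the floor leave out the counting error of MT2A and carry no interval. In sample 2 the ratio was 237 (65.3 to 1961) over MT1E, 424 (75.8 to 16784) over MT1M and 91.9 (48.1 to 202) over MT3.

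The 7 metallothioneins of the set lie in the cluster on chromosome 16, with other metallothionein genes and pseudogenes between some of them. All 7 are on the plus strand except MT1G. In GRCh38 (GENCODE 29), MT3 (ENSG00000087250) spans chr16:56589074-56591088, MT2A (ENSG00000125148) chr16:56608199-56609497 and MT1E (ENSG00000169715) chr16:56625475-56627112. MT1M (ENSG00000205364) spans chr16:56632233-56633986, MT1F (ENSG00000198417) chr16:56657694-56660698, MT1G (ENSG00000125144) chr16:56666731-56668065 and MT1X (ENSG00000187193) chr16:56682424-56684196. MTF1 (ENSG00000188786) and SLC30A1 (ENSG00000170385) are on the minus strand of chromosome 1, at chr1:37809567-37859620 and chr1:211571568-211578742.

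The other metallothionein genes and pseudogenes had few or no counts. All 14 had a mean below 1 CPM. For 7 of them neither sample held a count, among them MT1A, MT1B, MT1H and MT4. The most counts were those of MT1XP1, a processed pseudogene on chromosome 1, with 4 and 5 counts. By mean CPM, MT1DP came next, with 1 count in sample 1 and none in sample 2. Some others had more counts than MT1DP, in sample 2 alone. The 14 summed to 0.482 and 0.549 CPM in samples 1 and 2, against 35.4 and 31.1 CPM for the 7 metallothioneins of the set. Over all 60683 genes of the table, pseudogenes included, 74.4% had a mean below 1 CPM.

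Most genes beside the cluster were expressed. Of 9 flanking genes, 7 had at least 1 CPM, while 33.5% of the 19910 protein-coding genes of GENCODE 29 had a mean below it. NUP93, a subunit of the nuclear pore, had 160 and 164 CPM, and NUDT21, a factor of mRNA cleavage and polyadenylation, had 129 and 127 CPM. The kidney transporter SLC12A3 and CETP, a lipid transfer protein of plasma, both under 1 CPM, were chosen for naming after their values were seen.

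**Figure D3:**
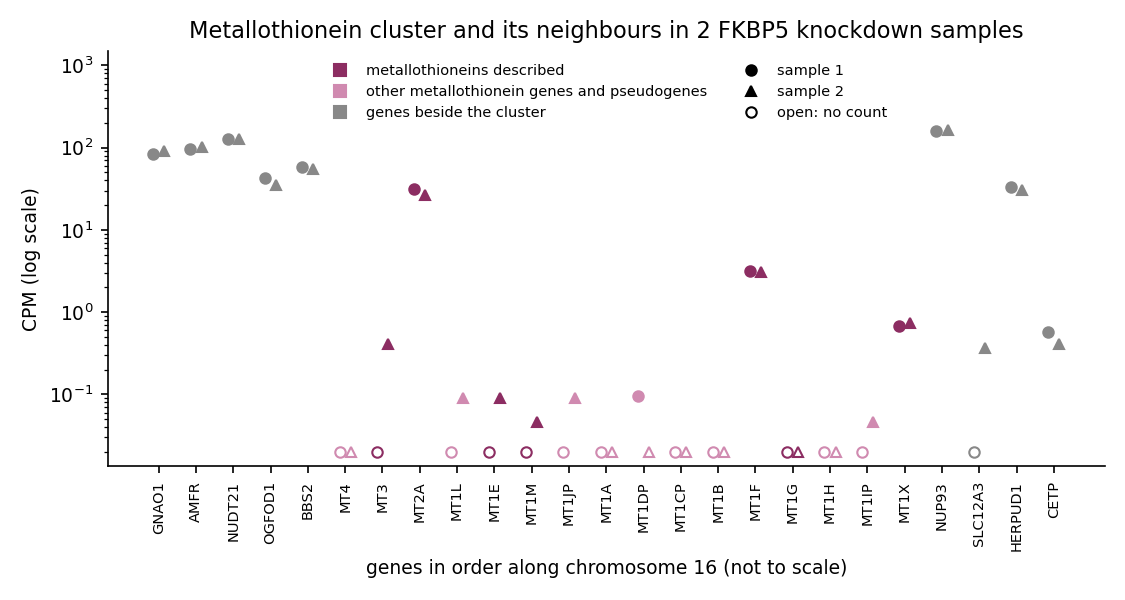
CPM on a log scale of metallothionein genes and flanking genes in their order along chromosome 16, for sample 1 (circles) and sample 2 (triangles), with open symbols at the bottom where there was no count. Within the cluster MT2A and MT1F stand above 1 CPM, while 7 of the 9 flanking genes do.

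Metallothionein transcripts resemble each other, and reads shared between copies make their levels less certain. Of the stretches of 50 bases in MT2A transcripts, 96.98% occur in no other gene's transcript in GENCODE 29. The share was 98.8% for MT1F, 100% for MT3, 92.9% for MT1E, 90.1% for MT1M, 83.5% for MT1G and 81.7% for MT1X. MT1X shares exonic bases with another gene on its strand over 18.1% of its exons, so its level is the least certain of the members counted in both samples. MTF1 and SLC30A1 had 99.4% and 100%. The sources used here do not give how the authors counted reads that fit several genes, and the effect on these counts was not tested.

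Of the members that could be tested, none passed the exact binomial test between the 2 libraries. The 2-sided test sets a gene's counts in both libraries against the share of reads that the deposited scaling assigns to each, and so compares libraries and not conditions. A mean of at least 1 CPM was reached by 4 of the 9 members, and 0 of these 4 had a Benjamini-Hochberg adjusted p under 0.05, while 1 had an unadjusted p under 0.05. Over all 15530 genes tested, 8.97% passed (4.41% higher in sample 2 and 4.56% lower), and 21.7% had an unadjusted p under 0.05. MT2A came closest, with 31.5 and 26.8 CPM in samples 1 and 2, a log2 ratio of CPM + 1 of -0.23 (exact binomial p = 0.0193, adjusted p = 0.128). The CPM ratio of sample 2 to sample 1 was 0.849 for MT2A (95% exact interval 0.741 to 0.975).

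The other 3 members tested were nearer to equal. The CPM ratio was 0.964 for MT1F (0.626 to 1.51), 1.02 for MTF1 (0.883 to 1.18) and 0.98 for SLC30A1 (0.867 to 1.11). Their log2 ratios were -0.04, 0.03 and -0.03 (exact binomial test, adjusted p = 0.988, 0.958 and 0.923). For MT1F the interval still allows a ratio from 0.626 to 1.51, so these counts bound its difference only loosely. The median log2 ratio of the 4 members was -0.03, beside 0.01 over all genes tested. MT3, at 0 and 9 counts, is below the minimum. Tested among all 41325 genes with a count, it had an exact binomial p of 0.0661 (adjusted p = 0.602).

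**Figure D4:**
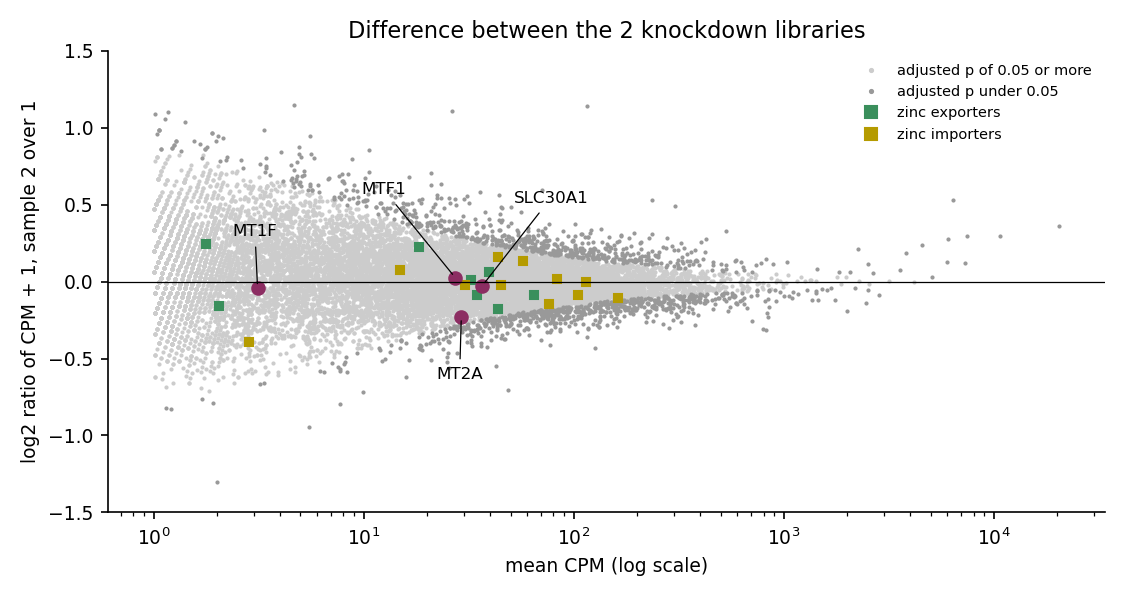
Log2 ratio of CPM + 1, sample 2 over sample 1, against mean CPM on a log scale for the genes tested (grey, darker where the adjusted p is under 0.05), with MT2A, MT1F, MTF1 and SLC30A1 as purple circles and other zinc transporters as squares. One axis limit leaves 1 gene outside the plot, and MT2A, at -0.23, is the member farthest from 0.

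SLC30A1 was one of several zinc exporters of similar level. Among the 10 other exporters (SLC30A2 to SLC30A10 and TMEM163), 8 had at least 1 CPM and 0 passed the binomial test, where 8.97% of all genes did. Of protein-coding genes, 33.5% had a mean below 1 CPM. An unadjusted p under 0.05 was seen for 1 of the 8, against 21.7% of all genes tested. SLC30A9, which exports zinc from mitochondria, had 9.22 and 8.69 CPM per kb, and SLC30A6, a subunit of a zinc transporter of the secretory pathway, had 8.53 and 7.51, both above SLC30A1 in each sample. The exporters had a median log2 ratio of -0.04 over the 8 tested.

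The highest zinc importers of the SLC39 family had higher levels per kb than SLC30A1. Of 14 importers, 11 had at least 1 CPM, while 33.5% of protein-coding genes had a mean below it. None of the 11 passed the binomial test, where 8.97% of all genes tested did. An unadjusted p under 0.05 was seen for 2 of the 11, against 21.7% of all genes tested. SLC39A6, a zinc importer of the plasma membrane, led with 45.7 CPM per kb in sample 1 and 42.5 in sample 2. SLC39A7, which releases zinc from the endoplasmic reticulum, had 40.3 CPM per kb in sample 1 and 40.2 in sample 2. Both were above MT2A per kb in each sample. The importers had a median log2 ratio of -0.02 over the 11 tested.

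**Figure D5:**
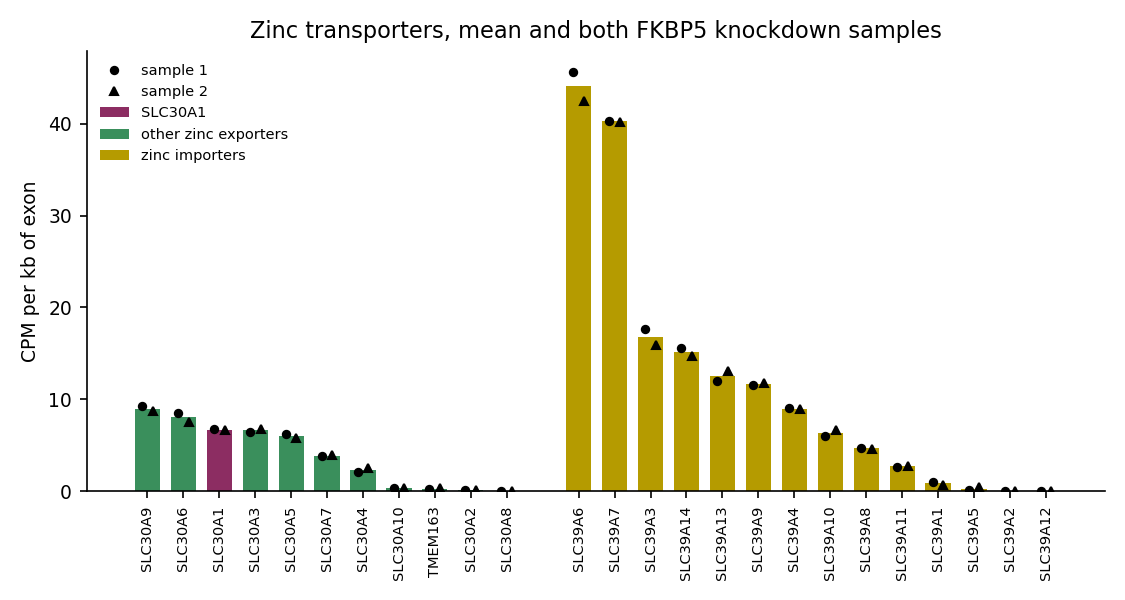
Mean CPM per kb of exon of zinc exporters and importers (bars) with sample 1 (circles) and sample 2 (triangles), ordered by mean within each class. SLC30A1 (purple) has the next mean after SLC30A9 and SLC30A6 among the exporters, at 6.69 CPM per kb, and the importers SLC39A6 and SLC39A7 are highest at 44.1 and 40.3.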

How the data were processed

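Per the labels' protocols, TRIzol RNA of HEK293T cells went into directional libraries (NEBNext, modified). The deposited counts are raw whole numbers for each Ensembl gene, and every row names a gene. The deposited CPM are these counts multiplied by a constant for each library. Within a relative tolerance of 1e-06, 100% of CPM values gave whole reads, and 100% equalled the counts. The library size behind the CPM was 3.78% and 2.68% above the column totals of samples 1 and 2. STAR 2.7.7a, edgeR and GRCh38 are named in the submitters' processing notes. Not given in the sources used here are the counting program, its strand setting and the annotation.

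Symbols were found for 99.5% of gene IDs, and 96.4% were in GENCODE 29, which gave coordinates, lengths and shared stretches. CPM per kb divides by the union of a gene's exons, which includes alternative exons and retained introns. Upstream sequences are from RefSeq (GRCh38.p14). With 1 group of 2 samples no test between conditions exists, so the exact binomial test between libraries was used, with Benjamini-Hochberg adjustment over the 15530 genes whose mean reached 1 CPM. It takes no account of variation between cultures. It was tested on simulated data with counting error alone, which cannot show how it behaves where libraries vary beyond that. Ratios between genes, other than those to the floor, carry exact conditional binomial intervals. No molecular identifiers are stated, and intervals and floors therefore cover counting error only. Depth was 9997706 and 21284648 counts.

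The members and gene lists were chosen with earlier results of these data known. Named genes are the 9 members, FKBP5 and, of each of 6 context lists, the 2 genes with the highest mean CPM. Any other gene is marked as chosen after seeing its values, which also holds for the metallothioneins outside the set named for having no count. Alternatives were another minimum, pseudocount, scaling and length, and leaving out each sample. Scripts ran in Python 3.11.15 (scipy 1.17.1, statsmodels 0.14.6, numpy 2.4.6, pandas 2.3.3), and TMM library sizes came from edgeR 4.0.16 in R 4.3.3.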

Additional observations from a re-analysis of the deposited data

How the results depend on the processing

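The 4 tested members kept their direction and stayed above an adjusted p of 0.05 with CPM scaled to column totals and with TMM library sizes. A pseudocount of 0.5 CPM enters the log2 ratio alone. It could change neither the direction nor the binomial test, so it tests nothing further. The adjusted p of MT2A was 0.128, 0.0963 with column totals, 0.143 with a minimum of 0.5 CPM and 0.313 with no minimum, the last pair chosen for single members after seeing the data. None of the members tested passed with a minimum of 0.5 CPM (5 tested) or with no minimum beyond 1 count (8 tested). Over all genes the test called 1393, 1352 with a minimum of 0.5 CPM, 972 with no minimum, 1396 with TMM and 1483 with column totals. The split was 685 higher in sample 2 and 708 lower with the deposited scaling and 581 and 902 with column totals. Counts recovered from the CPM, an alternative chosen after seeing the data, equalled the deposited counts. Their 1393 calls were thereby fixed in advance and test nothing further. The summed level of the 7 metallothioneins was 33.2 CPM, and 31.1 to 35.4 CPM leaving out each sample in turn. Divided by the longest transcript in place of the exon union, the mean level was 32.3 in place of 22.4 CPM per kb for MT2A and 1.99 in place of 1.65 for MT1F. No paired analysis was possible because both samples belong to 1 group and share no replicate number with another. Depth limits what can be said of MT1E, MT1G, MT1M and MT3.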

Other observations

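Genes of copper handling, another metal that metallothioneins bind, were mostly expressed. Of 12 such genes 11 had at least 1 CPM, while 33.5% of protein-coding genes had a mean below it. SCO2, at 1.64 and 1.56 CPM and named after its values were seen, shares 100% of its exonic bases with other genes on its strand. All 11 tested were lower in sample 2, as were 7289 of all 15530 genes tested. For 4 of the 11 the unadjusted exact binomial p was under 0.05, against 21.7% of all genes tested. SOD1, the cytosolic copper and zinc superoxide dismutase, had 209 and 206 CPM in samples 1 and 2, and SCO1, a copper chaperone of cytochrome c oxidase, had 72.1 and 70.3 CPM. COX17, a mitochondrial copper chaperone named after its values were seen, was the 1 gene of 11 tested past the binomial test (8.97% over all genes tested), with 25.6 and 20.4 CPM (exact binomial test, adjusted p = 0.0406). On its strand, 17.6% of its exonic bases also belong to another gene.

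Genes that metals and oxidants induce were all detected. All 9 had at least 1 CPM, while 33.5% of protein-coding genes had a mean below it. The heat shock gene HSPA1A had 619 and 660 CPM and HSPA1B 502 and 515 CPM. Only 28.7% and 26.5% of their stretches of 50 bases occur in no other gene's transcript; their separate levels are uncertain. Of these 9, 2 passed the exact binomial test, against 8.97% of all genes: HSPA1A higher in sample 2 and GCLC lower, at 44.9 and 35.5 CPM. GCLC encodes the catalytic subunit of the enzyme that limits glutathione synthesis, and was named after its values were seen. Among the genes beside the metallothionein cluster, OGFOD1, named in the same way, was the 1 of 7 tested that passed, at 42.5 and 35.5 CPM (exact binomial test, adjusted p = 0.0366).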
